A study of Mus musculus with 3 samples.

Results

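The genes described here belong to excitation-contraction coupling and calcium handling in skeletal muscle: Cacna1s, Cacnb1, Stac3, Ryr1, Atp2a1, Atp2a2, Casq1, Casq2, Cav3 and Jph1. A probe set was taken when its only gene symbol in the platform annotation was 1 of these names, with no regard to its signal. All 10 genes were found, with 20 probe sets, out of 18194 genes and 34958 probe sets with a single symbol. Of the 10 genes, 6 had 1 probe set, Ryr1 and Jph1 had 2 each, Cacnb1 had 4 and Atp2a2 had 6. Signals are given below in the order FoxO1, FoxO3, FoxO4 wherever 3 stand together.

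In skeletal muscle, depolarisation of the surface membrane is sensed in the transverse tubules by an L-type calcium channel, which opens the ryanodine receptor in the facing membrane of the sarcoplasmic reticulum. Calcium then leaves the store, binds troponin and starts contraction, and calcium pumps return it to the store, where calsequestrin holds it. In cultured myoblasts, most genes of this apparatus are known to be switched on as cells leave the cycle and fuse into myotubes.

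The cells were C2C12, a mouse line of myoblasts, grown in DMEM with puromycin. Each of the 3 lines expressed a hairpin RNA aimed at a forkhead transcription factor, FoxO1, FoxO3 or FoxO4, and came from colonies screened for the best depletion of its target. There was 1 Affymetrix array for each line and no replicate, so hairpin and colony cannot be told apart and no difference has a test or an error. Whether the cells had begun to differentiate is not given in the sources used here, and in such bulk RNA fewer cells of a type and less RNA per cell cannot be told apart. A control RNAi array enters through the log2 ratio deposited for the FoxO1-labelled array. The control signal that follows from this ratio is called the implied control here and is not a measured array.

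The deposited signal is a scaled intensity, with a median of 462.0, 387 and 398 on the 3 arrays in label order. Before differences were taken, signals under the 20th percentile of their array were raised to it, a floor of 81.2, 73.1 and 77.3. A difference is called by size alone, at 2-fold or more, which is a log2 value of 1. The check of the targets did not bear out the FoxO1 label nor, by its 2 brighter probe sets, the FoxO3 label. For the FoxO4 label it was mixed. The brightest Foxo1 probe set read 2778 on the FoxO1-labelled array, 563 and 1827 on the FoxO3- and FoxO4-labelled arrays and 1209 in the implied control. For Foxo3, the probe set brightest by mean log2 signal read 1357, 1047 and 1016 against 1029 in the implied control, and another read 2380, 1573 and 386 against 1570.0, so neither was lower than the control on the FoxO3-labelled array. The third and dimmest read 174, 82.0 and 96.4 against 747. The 2 Foxo4 probe sets went opposite ways: the brighter read 1799, 345 and 80.4 against 1678, and the dimmer read 188, 163 and 763 against 87.6. Each direction below is therefore that of an array by its label and not of a known depletion. The 3' to 5' signal ratio of the Actb control probe sets, a sign of RNA quality, was 6.31, 5.5 and 3.45 on the 3 arrays and 2.56 in the implied control. For Gapdh it was 5.0, 5.9 and 2.23 against 2.68, so the FoxO4-labelled array was above the control by the first and below it by the other. The part of RNA quality in the results was not tested.

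The voltage sensor was examined first. Cacna1s encodes the pore-forming subunit of the L-type channel that senses the voltage. Its probe set 1420442_at read 73.5 on the FoxO1-labelled array, 50.7 on the FoxO3-labelled array and 103 on the FoxO4-labelled array. The first 2 lay below their floors and the last just above its own, so the differences of 0.15, -0.34 and -0.49 between the arrays cannot be read. The implied control stood at 1552, and the deposited log2 ratio of the FoxO1-labelled array was -4.4, 21.1-fold lower, with a decrease call.

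Cacnb1 encodes the beta subunit that brings this channel to the membrane. Its 4 probe sets did not order the arrays alike. Probe set 1440940_at was highest on the FoxO3-labelled array, at 1094, against 375 and 494 on the FoxO1- and FoxO4-labelled arrays. For 1426108_s_at that same array was lowest, at 241, against 868 and 499. The signals of 1425777_at were 569, 352 and 90.0 and those of 1451834_at were 155, 81.0 and 40.1 on the 3 arrays in label order. Both were lowest on the last, but the 40.1 of 1451834_at lay below its floor. With the floor, FoxO3 minus FoxO4 was only 0.07 for that probe set. Over the 4 probe sets the standard deviation of the log2 difference was 1.44 for FoxO1 minus FoxO3, 1.26 for FoxO1 minus FoxO4 and 1.31 for FoxO3 minus FoxO4. These exceeded the gene medians of 0.82, 0.90 and 0.61, so no direction of Cacnb1 between the arrays holds up against its probe sets.

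Stac3 encodes an adaptor that the voltage sensor needs to couple to the release channel. Its probe set 1458087_at read 1640 on the FoxO1-labelled array, 1581 on the FoxO3-labelled array and 61.7 on the FoxO4-labelled array. The first pair of values was nearly equal, with a log2 difference of 0.05, while the FoxO4-labelled array lay below its floor. The log2 differences from that array, 4.41 and 4.35 with the floor, were the largest of any member between arrays and rest on 1 probe set.

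Ryr1 encodes the calcium release channel of the sarcoplasmic reticulum. Its brighter probe set 1427306_at read 1811 on the FoxO1-labelled array, 1019 on the FoxO3-labelled array and 785 on the FoxO4-labelled array. It was highest on the first by 0.83 and 1.21 on the log2 scale. The dimmer probe set 1457347_at read 446, 84.0 and 224, again highest on the FoxO1-labelled array. Against the control the probe sets went opposite ways, with deposited ratios of -1.5 and a decrease call for the brighter and 3.3 without a change call for the dimmer, whose implied control was 45.3. The gene median of 0.90 therefore describes neither.

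Calcium is pumped back into the store by the SERCA family. Atp2a1, which encodes the fast-muscle pump SERCA1, read 2398 on the FoxO1-labelled array, 875 on the FoxO3-labelled array and 949.9 on the FoxO4-labelled array. Its probe set was the only 1 of the 20 at least 2-fold higher on the FoxO1-labelled array than on both others, by 1.45 and 1.34. As a median over its probe sets, Ryr1 also passed 2-fold there, at 1.62 and 1.10. Atp2a1 was also far below its implied control of 9593 on every array, with a deposited ratio of -2.0 and a decrease call on the FoxO1-labelled array.

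Atp2a2 encodes SERCA2, the pump of slow and cardiac muscle with a form found in most cells, and 4 of its 6 probe sets were in the upper 25% by mean signal. The brightest of its 6 probe sets, 1427250_at, read 19303, 32097 and 28036 on the 3 arrays in label order. Probe set 1416551_at read 5711, 6796 and 4931, and 1427251_at read 1220, 1722 and 1478. The signals of 1452363_a_at were 1063, 2024 and 2137. All 6 probe sets were lower on the FoxO1-labelled array than on the FoxO3-labelled array, by -0.25 to -0.93 on the log2 scale with a median of -0.47, and none by 2-fold. Of the dim pair, 1443551_at read 47.6, 111 and 28.3 and 1437797_at read 107, 131 and 655, a value for the FoxO4-labelled array that no other Atp2a2 probe set repeated.

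The calsequestrins hold calcium inside the store. Casq1, the skeletal form, read 444 on the FoxO1-labelled array, 832 on the FoxO3-labelled array and 1018 on the FoxO4-labelled array, and was lower on the first by -0.91 and -1.20. Casq2, the cardiac and slow-muscle form, went the other way at 1351, 1045 and 275. It was lowest on the FoxO4-labelled array, by 2.30 and 1.93. Each has 1 probe set, and that of Casq2 is of a kind that can match more than 1 transcript.

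Cav3 encodes caveolin-3, the muscle caveolin of the surface membrane and developing transverse tubules. It read 49.4 on the FoxO1-labelled array, 646 on the FoxO3-labelled array and 105 on the FoxO4-labelled array, and so stood out on the FoxO3-labelled array, with log2 differences of -2.99 for FoxO1 minus FoxO3 and 2.63 for FoxO3 minus FoxO4. The first of these values was below its floor. Jph1 encodes junctophilin-1, which bridges the transverse tubule and the store. Its brighter probe set 1438428_at read 1631, 869 and 1988, lowest on the FoxO3-labelled array. The other, 1421520_at, was level on the 3 arrays at 876, 806 and 829.7.

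**Figure D1:**
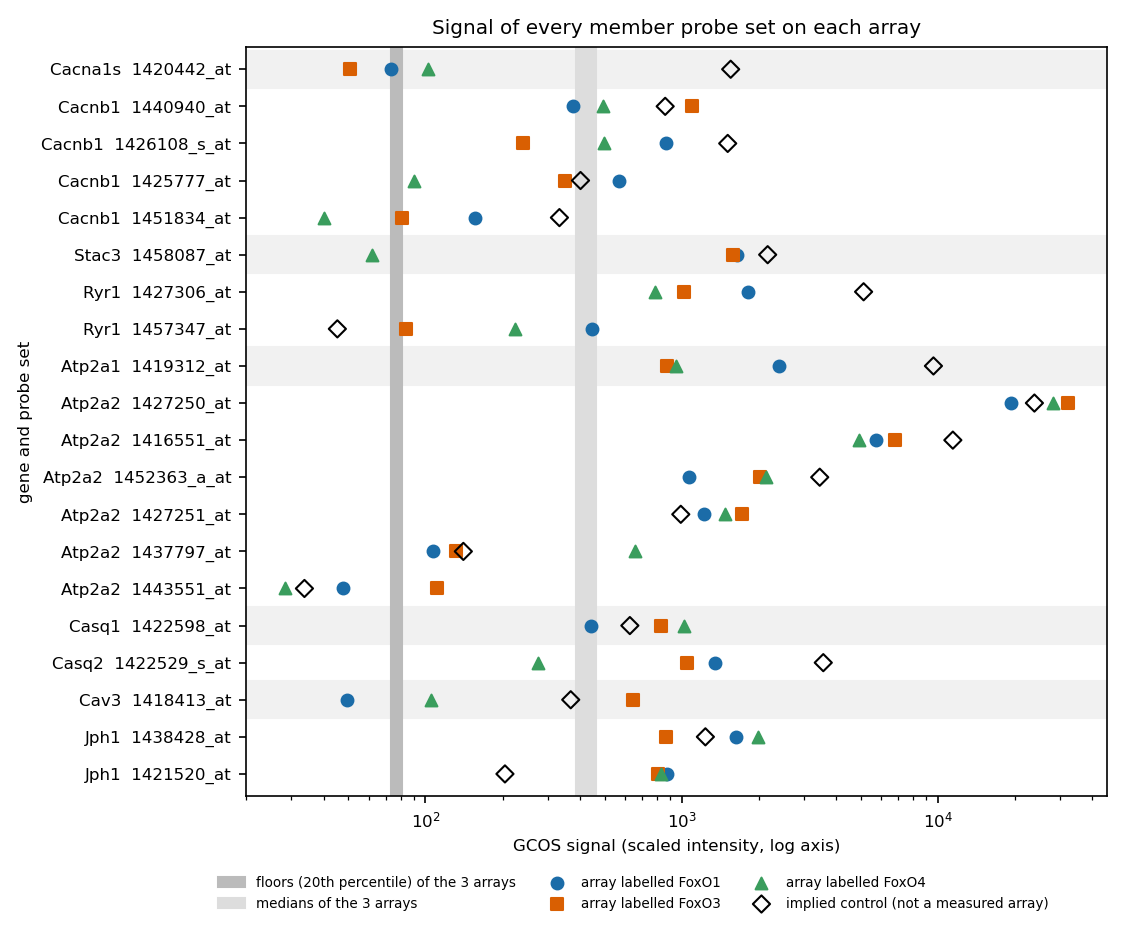
GCOS signal on a log axis for each of the 20 member probe sets, with filled points for the 3 arrays, open diamonds for the implied control and vertical bands for the floors and medians of the arrays. Cacna1s sits below or just above the floor, between 50.7 and 103, with its diamond at 1552, Stac3 is below the floor on the FoxO4-labelled array alone, and the brightest Atp2a2 probe set lies between 19303 and 32097 on every array.

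Between the arrays, the members as a group did not go 1 way. For FoxO1 minus FoxO3, 3 of 20 member probe sets were at least 2-fold higher, beside 23.2% of all 45101 probe sets, and 2 lower, beside 19.8%. That split was 3 higher and 4 lower with each array centred on its median, and 3 and 3 after quantile normalization. For FoxO1 minus FoxO4 the counts were 6 higher, beside 22.5%, and 3 lower, beside 19.5%. For FoxO3 minus FoxO4 there were 5 higher, beside 20.3%, and 4 lower, beside 21.1%. The medians over the 10 genes were 0.26, 0.40 and 0.04, beside 0.15, 0.07 and -0.08 over all genes. The second of these became -0.31 when each gene was read from its brightest probe set, so no group direction is read from it. With 20 probe sets, counts this near the share of all probe sets are not a result about the members.

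The same holds for probe sets set apart from both other arrays. On the FoxO1-labelled array, 1 of 20 was higher than both, beside 12.1% of all probe sets, and 0 were lower, beside 9.32%. On the FoxO3-labelled array, 2 were higher, beside 9.39%, and 2 lower, beside 10.5%. On the FoxO4-labelled array, 1 was higher, beside 9.34%, and 3 were lower, beside 9.93%. Those 3 belonged to Cacnb1, Stac3 and Casq2. Of the 7 member probe sets in the upper 25% by mean signal, those of Ryr1, Atp2a1, Jph1 and 4 of Atp2a2, 1 was at least 2-fold apart for FoxO1 minus FoxO3 (24.1% of all probe sets that bright), 3 for FoxO1 minus FoxO4 (18.6%) and 1 for FoxO3 minus FoxO4 (23.9%). The largest difference among these bright probe sets was 1.45, for Atp2a1.

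**Figure D2:**
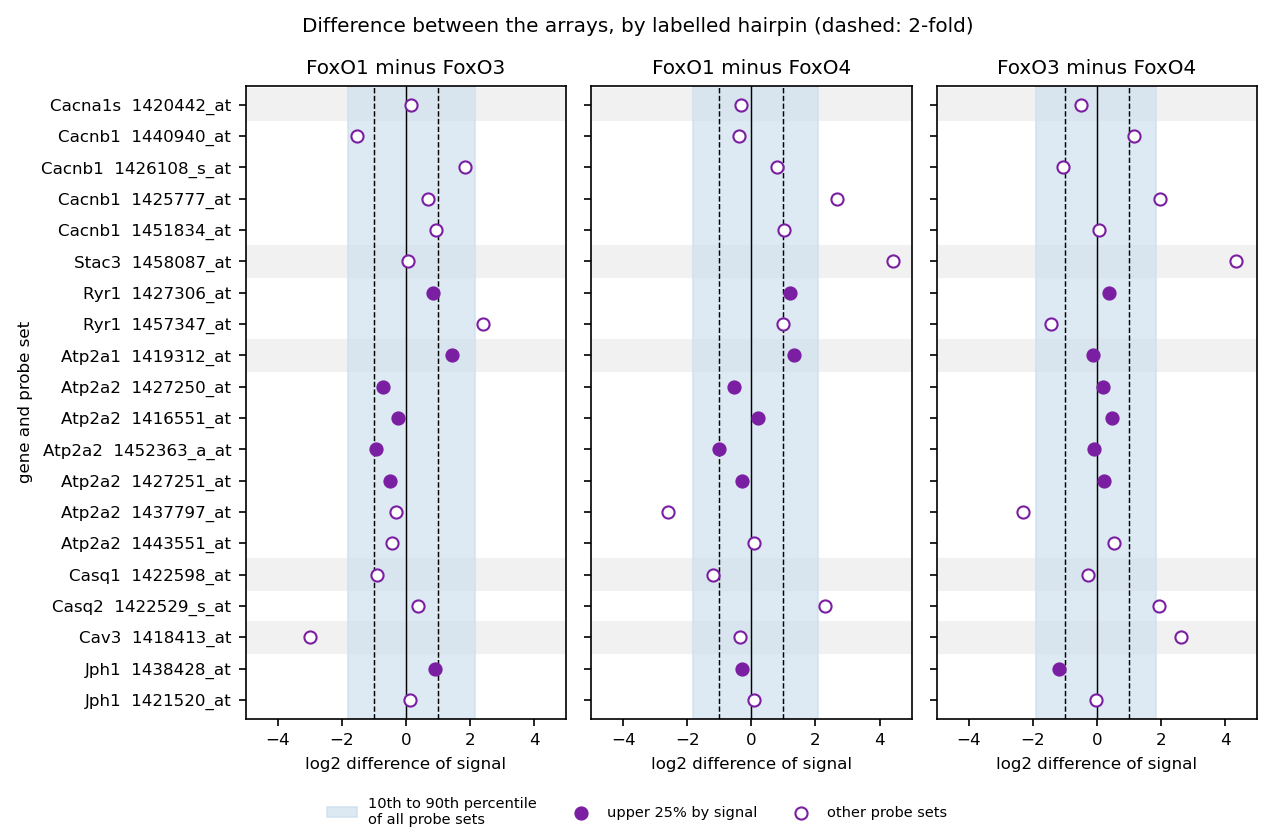
Log2 difference of signal between each pair of arrays for the 20 member probe sets, with dashed lines at 2-fold, a shaded band for the 10th to 90th percentile of all probe sets and filled points for probe sets in the upper 25% by signal. The filled points stay between -1.19 and 1.45, while the points outside the band belong to Cacnb1, Ryr1, Stac3, Atp2a2, Casq2 and Cav3 probe sets outside the upper 25% by signal.

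Against the control RNAi array, the FoxO1-labelled array had 9 of 20 member probe sets at least 2-fold lower, beside 21.1% of all probe sets, and 2 higher, beside 23.2%. In the authors' deposited table, 5 of the 20 carried a decrease call, beside 4.21% of all probe sets, 1 a marginal decrease call, beside 0.585%, and 0 an increase call, beside 1.26%, a share too small for 0 of 20 to be read. The decrease calls fell on Cacna1s at -4.4, Atp2a1 at -2.0, Atp2a2 at -1.7, Ryr1 at -1.5 and Cacnb1 at -0.8, and the marginal call on Casq2 at -1.4. By gene, 5 of 10 members had a decrease call on some probe set, beside 7.56% of all genes. Cav3 at -2.9 had none, its signal was below the floor, and the ratio was -0.31 with a floor at the 40th percentile. Casq1 at -0.5 and Stac3 at -0.4 were within 2-fold. Of the 6 Atp2a2 ratios, 4 were negative, from -0.3 to -1.7, and 2 positive, 0.3 and 0.5. Its 1 decrease call was not repeated as a call, though the bright 1416551_at also reached 2-fold lower, at -1.0. Both Jph1 ratios were positive, 2.1 and 0.4, without a change call. Among the 7 bright probe sets, 4 were at least 2-fold lower and 0 higher, beside 23.9% past 2-fold in either direction among all probe sets that bright. The median over the member genes was -0.73, beside 0.00 over all genes, and -1.30 with the brightest probe set of each.

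The FoxO3- and FoxO4-labelled arrays could be set only against the implied control, which all 3 comparisons share, so their likeness is not read as a result. On the FoxO3-labelled array, 6 of 20 member probe sets were at least 2-fold lower, beside 20.5% of all, and 1 higher, beside 19.9%. On the FoxO4-labelled array, 10 were lower, beside 20.3%, and 3 higher, beside 20.6%. Read from its brightest probe set, Cacna1s stood at -4.4, -4.41 and -3.92 on the 3 arrays in label order. Atp2a1 stood at -2.0, -3.45 and -3.34. Ryr1 gave -1.5, -2.33 and -2.71. For Casq2 the values were -1.4, -1.77 and -3.70. By this reading 4 of 10 members lay 2-fold or more under the control on every array. No share over all genes was computed beside that count, so it is not read as a result about the members. Ryr1 was that low on every array by its brightest probe set alone, as its gene medians were 0.90, -1.20 and -0.69. The brightest probe sets of Atp2a2, Casq1 and Jph1 stayed within 2-fold on every array. By probe set, 5 of 20 were at least 2-fold lower on all 3, beside 4.59% of all probe sets, the fifth being 1451834_at of Cacnb1. One of Jph1 was at least 2-fold higher on all 3, 1 of 20 beside 4.88%.

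The promoters shown are those of the 4 genes whose brightest probe set was low on every array against the shared control, a choice made from these values. RefSeq sequences of assembly GRCm38.p6, from 250 bases before to 50 after the start, were matched for 7 of the 10 members. Capitals mark each E-box, the letters CANNTG, which bHLH factors such as MyoD and myogenin are known to bind. The Cacna1s promoter is at chr1:136052561-136052860 (plus strand), that of Ryr1 at chr7:29125102-29125401 (minus strand), that of Atp2a1 at chr7:126463024-126463323 (minus strand) and that of Casq2 at chr3:102086165-102086464 (plus strand).
Cacna1s: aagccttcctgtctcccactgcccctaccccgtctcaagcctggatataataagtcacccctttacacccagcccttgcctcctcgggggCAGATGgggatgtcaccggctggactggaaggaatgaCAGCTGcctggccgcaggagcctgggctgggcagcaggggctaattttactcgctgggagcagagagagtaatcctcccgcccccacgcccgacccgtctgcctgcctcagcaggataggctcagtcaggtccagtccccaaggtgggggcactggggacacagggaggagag
Ryr1: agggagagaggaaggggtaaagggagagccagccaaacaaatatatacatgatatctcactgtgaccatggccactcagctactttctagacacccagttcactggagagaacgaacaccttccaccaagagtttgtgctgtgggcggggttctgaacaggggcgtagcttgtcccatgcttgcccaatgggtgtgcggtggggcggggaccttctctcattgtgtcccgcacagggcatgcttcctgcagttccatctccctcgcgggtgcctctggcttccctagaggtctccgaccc
Atp2a1: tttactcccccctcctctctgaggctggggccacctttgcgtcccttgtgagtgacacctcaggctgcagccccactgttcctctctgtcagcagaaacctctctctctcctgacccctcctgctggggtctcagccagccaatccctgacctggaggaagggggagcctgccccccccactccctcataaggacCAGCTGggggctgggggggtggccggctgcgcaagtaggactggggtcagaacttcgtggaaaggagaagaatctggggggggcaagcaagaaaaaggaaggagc
Casq2: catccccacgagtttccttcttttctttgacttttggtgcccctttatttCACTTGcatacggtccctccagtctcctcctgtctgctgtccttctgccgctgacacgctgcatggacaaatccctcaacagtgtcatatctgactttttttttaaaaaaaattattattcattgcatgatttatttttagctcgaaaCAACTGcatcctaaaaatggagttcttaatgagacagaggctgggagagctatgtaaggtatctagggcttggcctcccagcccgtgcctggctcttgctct

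Both strands were searched, and 72.3% of all 32841 promoters of this length hold the letters CANNTG, which read alike on both strands. The Cacna1s window holds 2 matches, CAGATG and CAGCTG, starting 160 and 123 bases before the start. Atp2a1 holds 1, CAGCTG, 55 bases before it. Casq2 holds 2, CACTTG and CAACTG, and Ryr1 holds 0. The form CAGCTG, a subset of CANNTG, lies in 16.3% of all promoters and, among members, in those of Cacna1s, Atp2a1, Casq1 and Cav3. Casq1 also holds CAGGTG, and that form or its reverse CACCTG lies in 20.2% of all promoters. The MEF2 motif was found once, in Casq2, 69 bases before the start and apart from its E-boxes, and is in 3.19% of all promoters. A FoxO core, TGTTTAC or its reverse GTAAACA, was in 0 of the 8 member windows. It is in 3.65% of all promoters, a share too small for 0 of 8 to be read.

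Other genes of the pathway were taken from a list by role, of which 65 of 73 had a probe set of their own. Against the control, 14 were at least 2-fold lower, beside 17.1% of all genes, and 16 higher, beside 18.8%, with a median of 0.10, so the wider list did not go 1 way. Decrease calls stood on 10 of the 65 and increase calls on 3, beside 7.56% and 2.48% of all genes. The 10, named here after their values were seen, included several proteins of the triad and voltage sensor. Cacng1, the gamma subunit of the skeletal L-type channel, read 2040, 2160.3 and 2716 on the 3 arrays in label order against 7612 in the implied control. Cacna2d1, its alpha-2/delta subunit, had a brightest probe set at 3925, 4382 and 5133 against 9664, but the median over its 5 probe sets was within 2-fold of the control on every array, at -0.40, 0.25 and 0.34. Srl, the store protein sarcalumenin, read 628, 388 and 575 against 2343. Dysf, the membrane repair protein dysferlin, read 45.6, 119 and 363 against 729.6, the first below its floor. The rest were Jph2, Bin1, S100a1, Fkbp1a, Atp2b1 and Rcan2. The increase calls stood on Cav1, Cav2 and Calu, and Cav1, a caveolin related to Cav3, read 43968, 7769 and 17869 against 10992.

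Between the arrays, 17 pathway genes were at least 2-fold higher for FoxO1 minus FoxO3, beside 19.6% of all genes, and 6 lower, beside 15.8%. The split was 13 higher and 10 lower with each array centred on its median and 15 and 8 after quantile normalization. With brightest probe sets it was 18 and 7. It thus varied with the processing and is not read as a direction. For FoxO1 minus FoxO4 there were 16 higher, beside 18.7%, and 4 lower, beside 15%. For FoxO3 minus FoxO4 there were 11 higher, beside 16.4%, and 10 lower, beside 17%. The medians were 0.34, 0.08 and -0.08. By role, the voltage sensor list had 3 of 9 genes higher and 0 lower for FoxO1 minus FoxO3 and 4 and 0 for FoxO1 minus FoxO4. Stac, an adaptor related to Stac3, read 747 on the FoxO1-labelled array, 352 on the FoxO3-labelled array and 71.6 on the FoxO4-labelled array. It was lowest on the array where Stac3 was lowest, but both lay below the floor there and each rests on 1 probe set. Cacna1d, another L-type pore subunit, was lower on the FoxO4-labelled array by 1.22 and 2.11, and Cacna1c, the cardiac one, was higher on the FoxO1-labelled array by 2.39 and 1.20. Both are medians over 2 probe sets. The brighter Cacna1d probe set read 628, 1101 and 535, with differences of 0.23 and 1.04, and the brighter Cacna1c probe set was instead highest on the FoxO4-labelled array, at 172, 52.8 and 322.

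Of the release channel genes, 1 of 7 was higher for FoxO1 minus FoxO3 and 0 lower. Fkbp1b, which binds ryanodine receptors, read 746, 82.5 and 1051 and was lowest on the FoxO3-labelled array. That lowest value was just above its floor of 73.1, and the gene has 1 probe set. S100a1, another regulator of the release channel, was lower on the FoxO4-labelled array by 1.73 and 1.07 as a median over 2 probe sets, but the brighter of them was lowest on the FoxO3-labelled array, at 4251, 1889 and 2081. Of the triad list, 5 of 12 were higher and 1 lower for FoxO1 minus FoxO3. Jph4 read 553, 149.8 and 155. Jsrp1, which encodes the triad protein JP-45, read 892, 504 and 172, lowest on the FoxO4-labelled array. Bin1, which shapes transverse tubules, gave medians of 1.51 and 1.71 in favour of the FoxO1-labelled array, but its brightest probe set was highest on the FoxO3-labelled array, at 12267 against 4694 and 3360.

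The pump regulators and buffers had 1 of 10 higher and 1 lower for FoxO1 minus FoxO3. Hrc, a calcium-binding protein of the store, read 2149, 894 and 721. Pln, the SERCA inhibitor phospholamban, had a gene median 1.16 and 2.86 lower on the FoxO1-labelled array. Its brightest probe set had the opposite order at 927, 506 and 74.9, the last below its floor. In the store-operated entry and extrusion list 4 of 10 were higher and 1 lower, and Orai3, an entry channel, read 199.5, 1114 and 1414. Atp2b4, a plasma membrane pump, read 731, 18.5 and 66.8, and the exchanger Slc8a3 had a brightest probe set at 636, 45.3 and 539. The values of 18.5, 66.8 and 45.3 lay below the floors of their arrays. Of the excitability genes 2 of 5 were higher and 1 lower, and the potassium channel Kcna7 read 1025, 130.1 and 139. Calcium signalling genes had 1 of 12 higher and 2 lower, and Camk2g, a calcium-activated kinase, had gene medians of -2.18 and -2.21 for FoxO1 minus FoxO3 and FoxO1 minus FoxO4. Its brighter probe set read 3770.3, 8028 and 5658, with differences of -1.09 and -0.59, the latter within 2-fold. Ppp3ca, a catalytic subunit of calcineurin, was lowest on the FoxO3-labelled array, with 2.25 for FoxO1 minus FoxO3 and -1.51 for FoxO3 minus FoxO4. Nfatc1, which calcineurin activates, had gene medians of 2.35 and 2.21 above the FoxO4-labelled array, but its brightest of 5 probe sets was highest there, at 691, 828 and 1521.

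**Figure D3:**
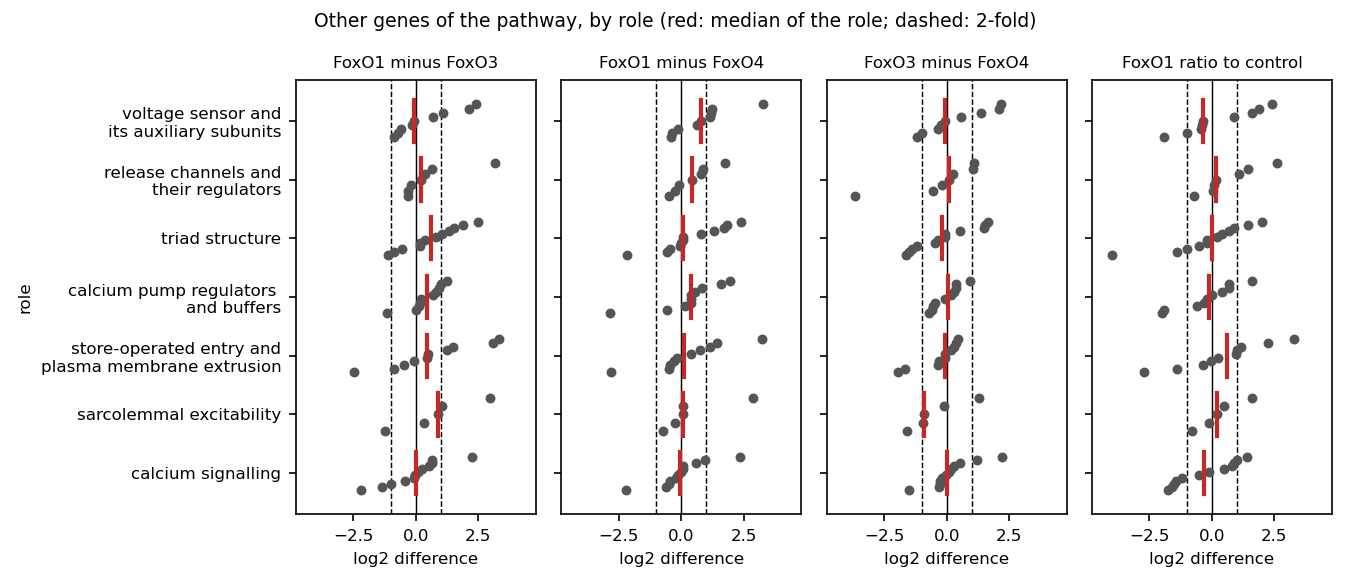
Log2 difference of each of the 65 measured pathway genes outside the members, by role, for the 3 pairs of arrays and for the FoxO1 ratio to control, with red bars at the median of a role and dashed lines at 2-fold. Genes of every role lie on both sides of 0 in the ratio to control, where 16 are at least 2-fold higher and 14 lower.

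Marker lists were set beside the members. The cells carried myoblast markers, of which Ncam1, a surface adhesion molecule, read 22247, 7735 and 6609 and Itga7, an integrin of muscle, read 16883, 20688 and 4124. The rest of the myoblast markers named here were picked after their values were seen. Myod1, the defining myoblast factor, read 2959, 2140.1 and 713. Pax7, a marker of muscle stem cells, stayed under the median of every array at 127, 242 and 168. Des, the muscle intermediate filament desmin, read 6907, 7433 and 272. Like Pax7, the remaining myoblast markers were not lowest on the FoxO4-labelled array. Cdh15 read 4761, 10814 and 10638, Myf5 read 1056, 1758 and 1398, and Vcam1 read 3704, 1189 and 2524. Markers of differentiating myocytes were low beside the 4 members whose brightest probe set was low on every array. Of these 10 genes, 9, 10 and 10 were at least 2-fold lower than the control on the 3 arrays in label order, and their summed signal was 16024, 7162 and 7422 against 167588. Myog, the differentiation factor myogenin and also picked after its values were seen, read 2673, 653 and 159 against 28221 in the implied control, and Acta1, skeletal actin, read 3424, 1820.2 and 1467 against 41515. Myoblast markers had 4, 2 and 3 of 8 genes at least 2-fold lower, with a summed signal of 58644, 51998 and 26446 against 111545. Of all genes, 17.1% were that much lower on the FoxO1-labelled array. For the FoxO3- and FoxO4-labelled arrays only shares of probe sets were computed, 20.5% and 20.3%. Counts of 2 or 3 of 8 are too few to be read beside these shares. The part of either list in the members' values was not tested.

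Markers of other cell types did not share 1 direction. Smooth muscle markers summed to 251000, 41484 and 297406 against 108595, and fibroblast markers to 194972, 104572 and 158930 against 139834. Most of the first sum was Acta2, at 228866, 35744 and 278209 against 99620. Most of the second was Col3a1, at 126648, 89220.5 and 115628.5 against 126648. By gene, 4, 1 and 3 of 6 smooth muscle markers were at least 2-fold higher than the control and 0, 3 and 0 lower. Of 7 fibroblast markers, 3, 1 and 1 were higher and 1, 2 and 1 lower, so these sums do not stand for their lists. On the FoxO1-labelled array, 18.8% of all genes were that much higher and 17.1% lower. Only shares of probe sets were computed for the FoxO3- and FoxO4-labelled arrays, 19.9% and 20.6% higher and 20.5% and 20.3% lower. Lists of 6 and 7 genes are too short for these counts to be read beside such shares. Osteoblast markers, with 3 of 5 measured, summed to 2427, 2337 and 2252 against 2560. Cardiac markers summed to 1168, 2720 and 2333 against 3425. Endothelial markers gave 1561, 1324 and 1754 against 1745, macrophage markers 2306, 3120 and 2891 against 3100, and neuron markers 1594, 4576 and 1674 against 1914. No marker of any list was at or under the floor on all 3 arrays. Nearest to it by mean signal were the leukocyte marker Ptprc, at 127, 20.5 and 24.0, and the cardiac marker Tnni3, at 56.1, 69.0 and 122. The part of other cell types in the members' values was not tested.

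**Figure D4:**
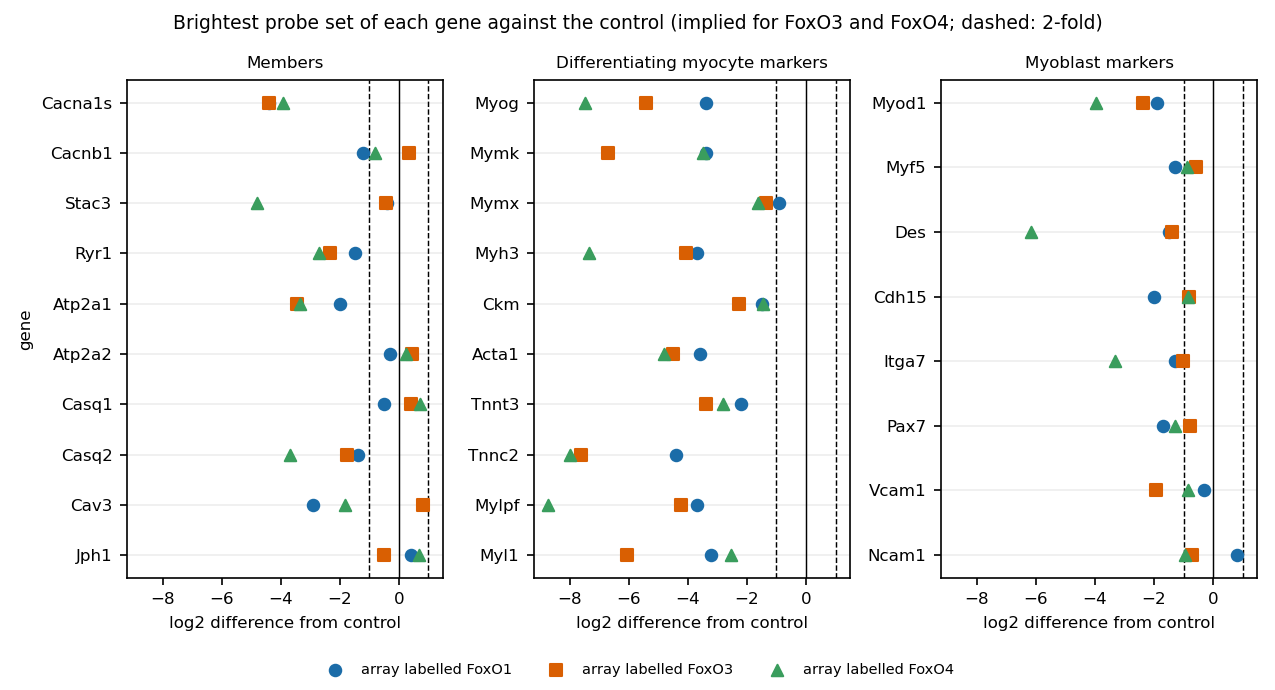
Log2 difference from the control for the brightest probe set of each of the 10 members, 10 differentiating myocyte markers and 8 myoblast markers, with the deposited ratio for the FoxO1-labelled array and the implied control for the other 2. Cacna1s, Ryr1, Atp2a1 and Casq2 lie left of the dashed line on every array, as do 9 of the 10 myocyte markers, while Atp2a2, Casq1 and Jph1 lie between the dashed lines.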

How the data were processed

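RNA from 3 C2C12 hairpin lines was measured on Affymetrix mouse arrays, 1 array each. The intensity the authors deposited for every probe set is a GCOS signal whose trimmed mean was 1000 on all 3 arrays. A second deposited table gives log2 ratios to a control RNAi sample, in steps of 0.1, and a change call beside them, per the file headers. The submitters' processing notes name GCOS without a version. Identifiers stand in that table for 1 ratio column only: across probe sets, the FoxO1 ratio had r of 0.58 with the log2 signal of its array minus that of the others, while the FoxO3 and FoxO4 ratios had -0.01 and -0.00 and were not read. The implied control is the log2 FoxO1 signal minus that ratio. The deposited ratio was used with no floor. Symbols were updated by Entrez identifier through RefSeq (34754 of 34958 probe sets). A gene's value is the median over its probe sets. The members and lists were chosen with earlier results of these data known. All members are named with every probe set. Pathway genes are named, up to 3 a role by size, where they stood 2-fold from both other arrays and above an array's median on some probe set. Of the markers, those with the highest signal are named, and others are marked as picked after their values were seen. Array number limits the precision. Calculations were tested on simulated data. Alternatives covered floor, scaling, gene summary, probe sets and threshold. Python 3.11.15, numpy 2.4.6, pandas 2.3.3 and matplotlib 3.10.9 were used.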

Additional observations from a re-analysis of the deposited data

How the results depend on the processing

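No paired analysis was possible because each line has 1 array. With no replicates, a value was held to have moved when it shifted by more than the spread between probe sets of a gene, divided for a list's median by the square root of its number of genes. Of 132 alternative values for counts and medians, 97 stayed within these limits or within 1.5 times the count and 35 moved. Member probe sets at least 2-fold apart numbered 5, 9, 9 and 11 for FoxO1 minus FoxO3, FoxO1 minus FoxO4, FoxO3 minus FoxO4 and the FoxO1 ratio to control. They numbered 2, 4, 3 and 5 at 4-fold, and among the 7 in the upper 25% by signal, a choice made after seeing the data, 1, 3, 1 and 4. The first was 12 at 1.5-fold, as was 11 against the implied control for FoxO3 (from 7), and the ratio count was 6 of 12 probe sets above the array median. Fewer probe sets or another threshold account for these by construction. The median over the members for FoxO1 minus FoxO4 (0.40) turned to -0.31 with brightest probe sets and -0.10 with plain probe sets, which leave out Casq2. The ratio median (-0.73) became -1.30 with brightest probe sets. Against the implied control the FoxO3 median (-0.79) became -0.37 with a floor at the 40th percentile and -0.20 with plain probe sets, and the FoxO4 median (-1.84) became -0.99 and, with brightest probe sets, -2.26. Pathway genes at least 2-fold apart numbered 23, 20, 21 and 30. With the higher floor they were 14, 11, 9 and 19, at 4-fold 10, 9, 4 and 8, and at 1.5-fold 39 and 32 for the first 2. The pathway median for FoxO1 minus FoxO3 (0.34) became 0.22 with the higher floor, 0.08 with centred arrays, 0.21 after quantile normalization and 0.48 with brightest probe sets. That for FoxO1 minus FoxO4 became -0.13 with centred arrays, and that of the ratio (0.10) became 0.36 with the higher floor and -0.10 with brightest probe sets. Of single member genes, Cacnb1 against the implied control for FoxO3 (-1.12) turned to 0.34 with its brightest probe set, and of 344 values in all 14 more moved without such a turn of a 2-fold difference. With the higher floor, by construction, Cav3 became -1.12 (from -2.99), 1.31 (2.63) and, as a ratio, -0.31 (-2.9) for FoxO1 minus FoxO3, FoxO3 minus FoxO4 and the control. Stac3 became 2.65 (4.41), 2.60 (4.35) and, for FoxO4 against the implied control, -3.05 (-4.81). Cacna1s against the control became -2.38, -2.60 and -2.58 (-4.4, -4.41 and -3.92). With brightest probe sets, Cacnb1 became -1.54 (0.82) and -0.40 (0.90) for FoxO1 minus FoxO3 and minus FoxO4, Ryr1 -1.5 (0.90) for the ratio and -2.71 (-0.69) for FoxO4, and Jph1 -0.51 (0.74) for FoxO3 against the implied control. Where no construction is named, the cause was not tested. Signals near the floor limit Cacna1s, Stac3 and Cav3 most.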
